A study of Mus musculus with 6 samples.

Results

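Smooth muscle contractile and calcium genes are the 31 genes of a named list that code for the contractile apparatus of the uterine wall, its calcium handling and its control, taken from the 18193 genes measured in mouse uterine horns. A gene was kept where the array annotation gave a probe set only its symbol, and 1 probe set stood for each gene, the one with the highest mean log2 value over the 6 arrays. All 31 genes were found, and no filter on low values was applied. They comprise 17 structural genes, 10 genes for calcium handling, potassium channels and the oxytocin receptor, and 4 genes for enzymes and transcription factors.

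The study hybridised labelled cRNA from whole uterine horns to Affymetrix arrays. One group of 3 arrays came from P4-treated mice, P4 being the usual abbreviation of progesterone, and the other group of 3 arrays from oil-treated mice. Every animal was a female of 8 weeks on a mixed background that carried the GATA2 f/f genotype and had been ovariectomized. The labels name no recombinase, no dose and no time after treatment, and do not say whether each array came from a separate animal, so the p-values measure the spread between arrays, which may be technical. Horns are bulk tissue holding myometrium, stroma, epithelium and vessels, so fewer cells of a type and less RNA per cell cannot be told apart.

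The myometrium contracts when calcium enters through L-type channels, is released from the sarcoplasmic reticulum, and with calmodulin activates myosin light chain kinase, which lets myosin filaments pull on actin. Potassium channels, the reticulum's calcium pump and cyclic GMP oppose this, and oxytocin acting on its receptor promotes it. Serum response factor with its partner myocardin is the best-known regulator of the contractile genes, and progesterone is known as the hormone that keeps the uterus quiescent in pregnancy.

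Most of these genes stayed below the test's threshold. Of the 31 genes, Srf rose after P4 treatment and Pgm5, Pln, Pcp4 and Pde5a fell, each by less than 1 log2 unit. A gene was counted as changed where limma gave an adjusted p under 0.05, with Benjamini-Hochberg adjustment over all 18193 genes. The 5 changed genes are 16.1% of the list, against 13.0% of all genes that changed, and 1 of 31 rose against 6.08% of all genes while 4 of 31 fell against 6.94%. The P4 and oil arrays did not overlap for 8 of the 31 genes, against 31.8% of all genes. Both counts are therefore near the background of all genes. The median difference was -0.07 log2 over the 31 genes and -0.01 log2 over all genes, always P4 minus oil on log2(intensity + 16), a scale that understates the change of dim genes. The replicate number was also used as a block, a pairing inferred only from the correlated deviations of same-numbered arrays. This correlation was 0.13 for the arrays numbered 2, below the 0.29 of Oil 2 with P4 1. With the block, 6 of the 31 genes changed, against 20.9% of all genes, the added one being Kcnmb1. With the arrays centred on their hybridisation control probe sets instead, none of the 4 falls passed limma's test while Srf still did (0.73 log2, adjusted p 0.0218). Without both arrays numbered 2 none of the 5 genes passed, and of all 18193 genes only 171 did.

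**Figure D1:**
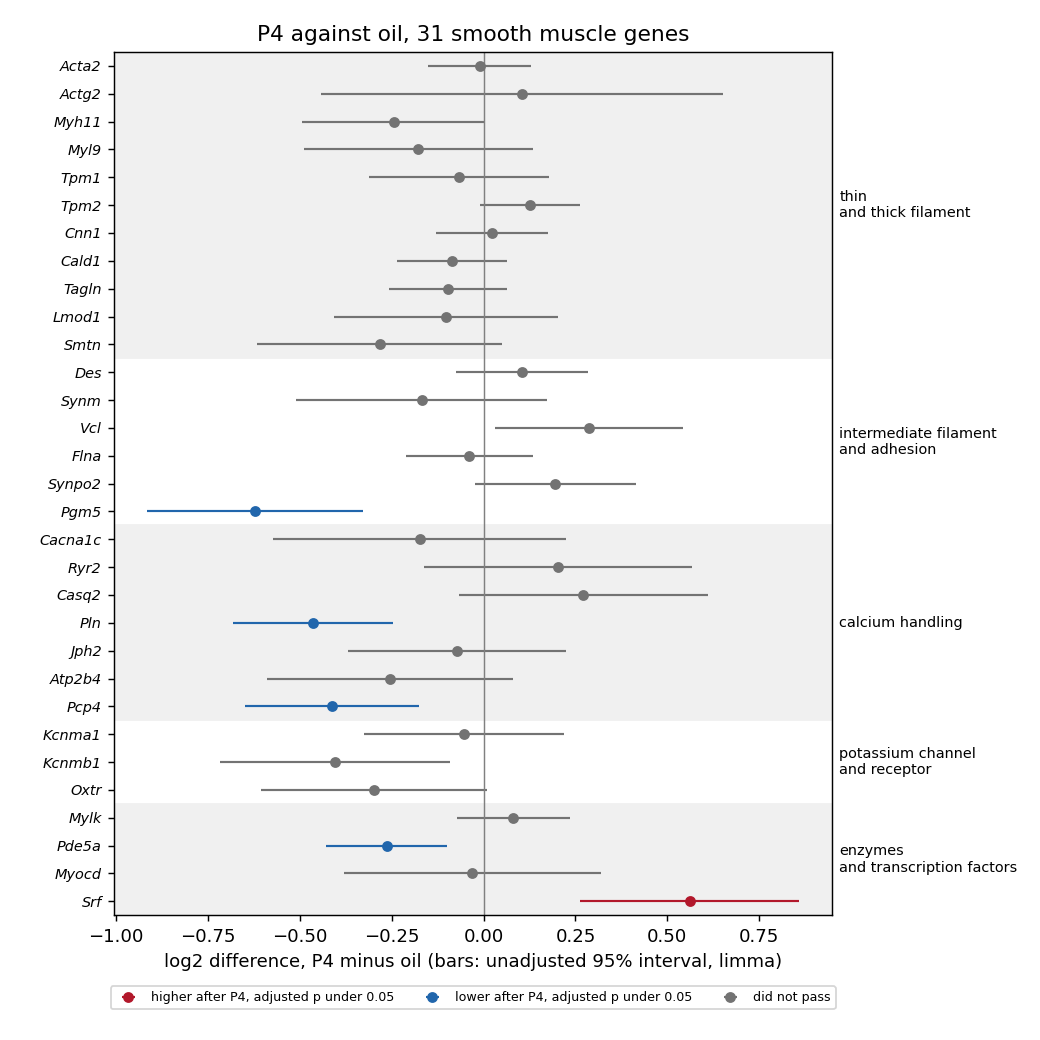
Difference in log2(intensity + 16), P4 minus oil, for each of the 31 genes, with bars giving the 95% confidence interval from limma (3 arrays per group) and colours marking genes whose adjusted p was under 0.05. Srf lies to the right of 0 at 0.56, Pgm5, Pln, Pcp4 and Pde5a lie to the left of it between -0.62 and -0.26, and the other genes lie between -0.40 and 0.29.

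Serum response factor, encoded by Srf, is the transcription factor that binds CArG boxes, short elements with A and T bases between CC and GG. Promoter windows running from 250 bases before to 50 bases after the start were available from RefSeq (GRCm38.p6) for 27 of the 31 genes. The windows of Srf, Vcl and Myl9 held a CArG box on the strand shown, and that of Acta2 held the looser form with 1 C or G among the inner bases, a form searched for after the values were seen. These 4 are shown because they carry the boxes of the factor whose own gene rose, in a structural gene that stayed near the oil level (Acta2), in one that lay higher without passing the test (Vcl) and in one that lay lower without passing it (Myl9). Capitals mark the boxes of either form. The windows are chr17:46556113-46556412 for Srf and chr19:34255324-34255623 for Acta2, both on the minus strand, and chr14:20929148-20929447 for Vcl and chr2:156775214-156775513 for Myl9, both on the plus strand.
Srf: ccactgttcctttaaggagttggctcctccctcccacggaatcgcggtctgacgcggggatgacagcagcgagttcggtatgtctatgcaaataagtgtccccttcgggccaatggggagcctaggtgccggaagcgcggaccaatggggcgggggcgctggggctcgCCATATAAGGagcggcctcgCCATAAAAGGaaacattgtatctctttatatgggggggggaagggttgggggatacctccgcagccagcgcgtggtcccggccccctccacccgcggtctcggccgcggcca
Vcl: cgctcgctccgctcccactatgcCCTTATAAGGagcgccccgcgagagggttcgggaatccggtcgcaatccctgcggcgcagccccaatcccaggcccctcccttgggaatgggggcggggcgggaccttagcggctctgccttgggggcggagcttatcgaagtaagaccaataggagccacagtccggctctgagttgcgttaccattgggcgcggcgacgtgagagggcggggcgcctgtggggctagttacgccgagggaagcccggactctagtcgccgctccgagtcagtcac
Myl9: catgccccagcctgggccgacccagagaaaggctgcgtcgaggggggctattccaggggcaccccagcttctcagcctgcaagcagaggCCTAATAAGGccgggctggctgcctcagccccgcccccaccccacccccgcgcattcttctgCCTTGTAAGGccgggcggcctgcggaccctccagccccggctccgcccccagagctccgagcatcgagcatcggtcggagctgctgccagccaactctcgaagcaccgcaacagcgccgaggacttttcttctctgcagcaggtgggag
Acta2: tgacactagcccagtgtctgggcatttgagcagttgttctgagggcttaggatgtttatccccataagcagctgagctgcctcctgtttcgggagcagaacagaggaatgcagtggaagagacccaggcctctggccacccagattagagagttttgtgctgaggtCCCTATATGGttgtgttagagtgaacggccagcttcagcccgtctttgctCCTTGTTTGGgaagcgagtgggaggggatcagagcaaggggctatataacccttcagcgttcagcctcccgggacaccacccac
The boxes begin 82 and 62 bases before the start in Srf, 227 bases before it in Vcl, 161 and 99 bases before it in Myl9, and 84 and 34 bases before it in Acta2. A full CArG box lay in 3 of the 27 genes (11.1%), against 1.81% of the 27025 genes in the table. The looser form lay in 6 of the 27 genes (22.2%), against 9.70% of all genes in the table, the 6 being Acta2, Myl9, Cacna1c, Jph2, Pcp4 and Synm. The steroid response palindrome GNACANNNTGTNC, read the same on both strands, was in none of the 27 genes and in 0.537% of all genes. Both strands were searched, the looser CArG form excludes the full box, and the windows of a gene with several starts were counted as 1 gene. A match describes the letters of a window and does not show binding.

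Srf had intensities of 3025.4, 2631.6 and 2214.3 on the P4 arrays, against 1985.3, 1590.5 and 1726.1 on the oil arrays. Each P4 array lay above each oil array. The means were 2623.8 ± 405.6 after P4 and 1767.3 ± 200.6 after oil (SD, n = 3 each), and the difference of 0.56 ± 0.13 log2 (SE) had an adjusted p of 0.0281, or 0.0043 with the replicate block. The probe set behind these values is of a kind that can take up related transcripts. The other Srf probe set read 232.8, 273.2 and 274.3 after P4 and 232.3, 229.3 and 241.2 after oil, a difference of 0.14 log2 with an unadjusted p of 0.181. The call was lost without P4 1, P4 2, Oil 2 or Oil 3, with an adjusted p between 0.0182 and 0.114 over the 6 arrays left out in turn.

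Myocardin, encoded by Myocd, the smooth muscle partner of serum response factor, did not pass the test. Its intensities were 405.1, 436.2 and 358.2 after P4, against 451.5, 467.2 and 320.1 after oil. The groups overlapped, and the difference of -0.03 log2 had a 95% interval of -0.38 to 0.32. Mylk, the kinase that phosphorylates the myosin light chain, read 9302.8, 10654.7 and 9713.5 after P4, against 9481.0, 9170.3 and 9350.2 after oil. Its difference was 0.08 log2 (95% interval -0.07 to 0.24), with 1 P4 array inside the oil range.

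Pde5a codes for the phosphodiesterase that degrades cyclic GMP, and it fell after P4. Its intensities were 1937.6, 2133.2 and 1967.8 on the P4 arrays, against 2325.4, 2475.2 and 2452.9 on the oil arrays. The groups did not overlap, with a difference of -0.26 ± 0.07 log2 (SE) and an adjusted p of 0.0484. This call was lost when any 1 of the 6 arrays was left out, with adjusted p between 0.0582 and 0.17. Its other probe sets differed by -0.36 and -0.02 log2. The probe set used for Pde5a is, like that of Srf, of a kind that can take up related transcripts. With such probe sets left out, limma gave -0.36 log2 and an adjusted p of 0.0634.

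The thin and thick filaments of smooth muscle consist of actins, myosin and the proteins that line them. None of these 11 genes passed limma's test, against 13.0% of all genes, and none had an unadjusted p under 0.05. The share of all genes under that unadjusted p was not counted. Acta2, the smooth muscle alpha-actin, had 15322.7, 16900.5 and 15333.0 on the P4 arrays, against 15855.0, 15740.7 and 16282.4 on the oil arrays. The P4 arrays lay on both sides of the oil arrays, with a difference of -0.01 log2 and a 95% interval of -0.15 to 0.13. The other Acta2 probe sets, both far dimmer, differed by 0.21 and -0.14 log2. Myh11, the smooth muscle myosin heavy chain, had 5556.5, 7225.7 and 5511.1 after P4, against 7009.7, 7442.2 and 7069.3 after oil. P4 2 lay within the oil range and the other P4 arrays below it, with a difference of -0.25 ± 0.11 log2 (SE) and an adjusted p of 0.196. Without P4 2 the difference was -0.37 log2 and limma's adjusted p 0.0235. Leaving out the P4 array nearest the oil arrays enlarges the difference by construction, so this gives no support for a fall. The other Myh11 probe set, a dimmer one, differed by 0.08 log2.

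Actg2, the enteric gamma-actin that is abundant in visceral muscle, varied most of the filament genes between P4 arrays. It had 1713.6, 3629.5 and 2426.8 after P4, against 2071.0, 2444.1 and 2396.1 after oil. P4 1 was below all oil arrays and P4 2 above them all, so that the difference of 0.10 ± 0.24 log2 (SE) had a 95% interval of -0.44 to 0.65 and became -0.17 without P4 2. Actin genes are close copies in sequence, so probe sets of one may take up another.

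Tpm2, a tropomyosin that lies along the actin filament, had 10105.8, 10341.0 and 9558.1 after P4, against 9128.5, 8949.2 and 9406.7 after oil. Its groups did not overlap, but the difference of 0.13 log2 had an adjusted p of 0.225. Tpm1, the other tropomyosin, differed by -0.07 log2 and Cald1, caldesmon, an actin-bound inhibitor of myosin, by -0.09 log2. The regulatory light chain gene Myl9 differed by -0.18 log2 (95% interval -0.49 to 0.13), and Smtn, smoothelin, by -0.28 log2 (95% interval -0.62 to 0.05). Cnn1 (calponin), Tagln (transgelin) and Lmod1 (leiomodin, which nucleates actin filaments) differed by 0.02, -0.10 and -0.10 log2.

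The intermediate filament and adhesion genes tie the contractile apparatus to the membrane and to other cells. Pgm5, a phosphoglucomutase relative found at adherens junctions and lacking the enzyme's activity, was the 1 structural gene of 17 that passed the test. It had 964.7, 1025.0 and 823.3 on the P4 arrays, against 1531.1, 1612.6 and 1222.0 on the oil arrays. All P4 arrays lay below all oil arrays, the means were 937.7 ± 103.6 and 1455.2 ± 206.0 (SD, n = 3 each), P4 first, and the difference was -0.62 ± 0.13 log2 (SE) with an adjusted p of 0.0177. The call was lost without P4 3, Oil 1 or Oil 2, with an adjusted p of up to 0.0791.

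Vinculin, encoded by Vcl, links integrin adhesions to actin. Vcl had 3581.5, 3894.8 and 2873.2 after P4, against 2842.6, 2776.2 and 2787.4 after oil. P4 3 was close to the oil arrays and the other P4 arrays well above them, and the difference of 0.29 ± 0.11 log2 (SE) had an adjusted p of 0.14. Without P4 3 these were 0.41 log2 and 0.020, but leaving out the P4 array nearest the oil arrays enlarges the difference by construction. Synpo2, an actin-bundling protein, had a difference of 0.20 log2 and an adjusted p of 0.241, and its 4 probe sets all lay above 0. With the probe sets of each gene averaged, Synpo2 passed at 0.30 log2 and an adjusted p of 0.0383. The filament genes Des (desmin) and Synm (synemin) differed by 0.11 and -0.17 log2, and Flna (filamin A) by -0.04 log2, none past the threshold. Among the 16 structural genes that did not pass, the largest difference was 0.29 log2 in size and the widest interval bound 0.65 log2.

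**Figure D2:**
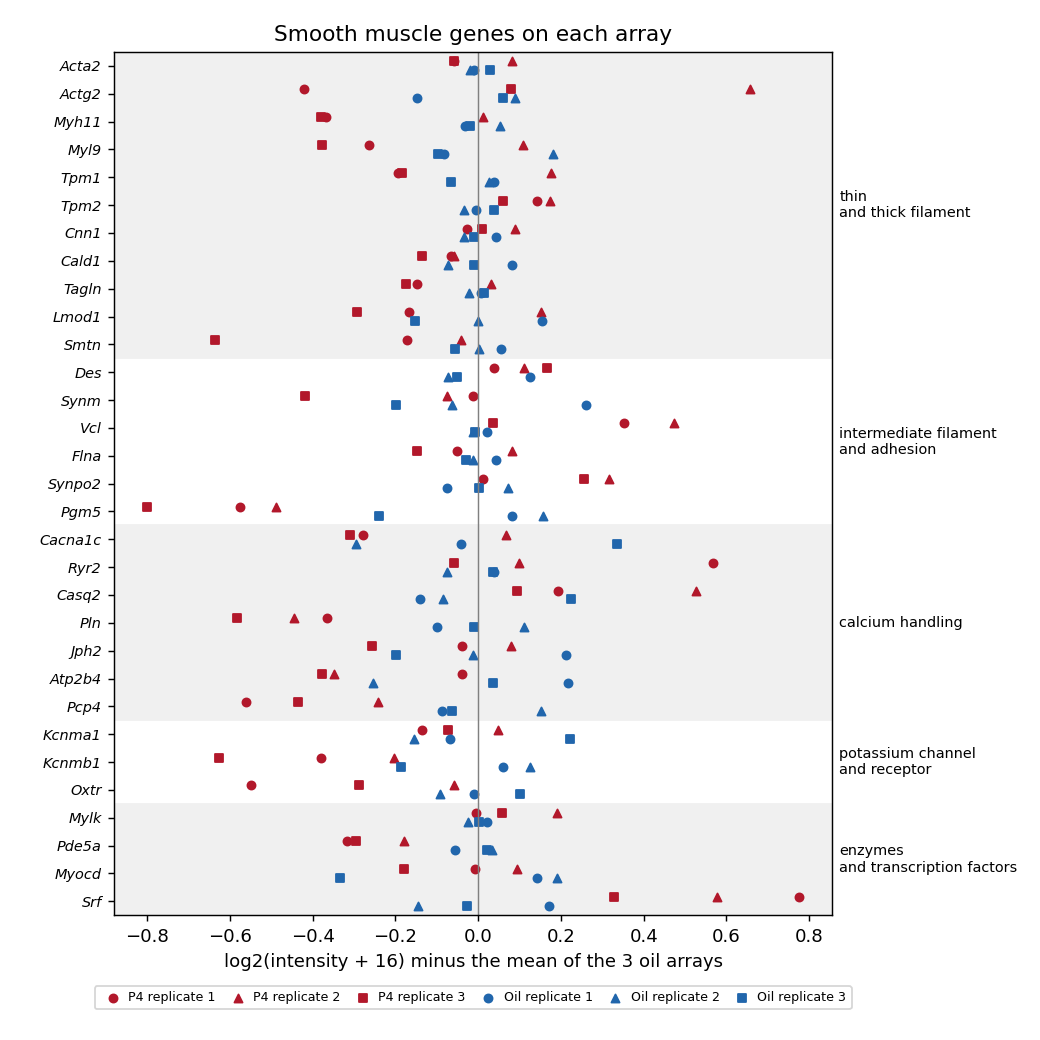
Deviation of log2(intensity + 16) from the mean of the 3 oil arrays for each gene (one row per gene), with red points for P4 arrays and blue points for oil arrays, and circles, triangles and squares for replicates 1, 2 and 3. P4 2 is the rightmost P4 point in 25 of 31 genes, and the P4 points of Pgm5, Pln, Pcp4 and Pde5a lie left of all oil points.

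Among genes for calcium handling, Pln and Pcp4 fell. Phospholamban, encoded by Pln, inhibits the pump that returns calcium to the sarcoplasmic reticulum. Pln had 546.8, 516.4 and 468.7 on the P4 arrays, against 660.6, 766.9 and 704.0 on the oil arrays. The groups did not overlap, and the difference was -0.46 ± 0.09 log2 (SE) with an adjusted p of 0.0167. Its other probe sets differed by -0.39 and -0.33 log2, on the same side. The call was lost without P4 2 or Oil 2, with an adjusted p of up to 0.0777.

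Pcp4 codes for a small protein that binds calmodulin and speeds its exchange of calcium. It had 3444.0, 4300.8 and 3761.0 on the P4 arrays, against 4786.6, 5649.8 and 4866.0 on the oil arrays. Each P4 array was below each oil array, with a difference of -0.41 ± 0.10 log2 (SE) and an adjusted p of 0.0368. The call was lost without P4 1, P4 3, Oil 1, Oil 2 or Oil 3, with an adjusted p of up to 0.137.

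**Figure D3:**
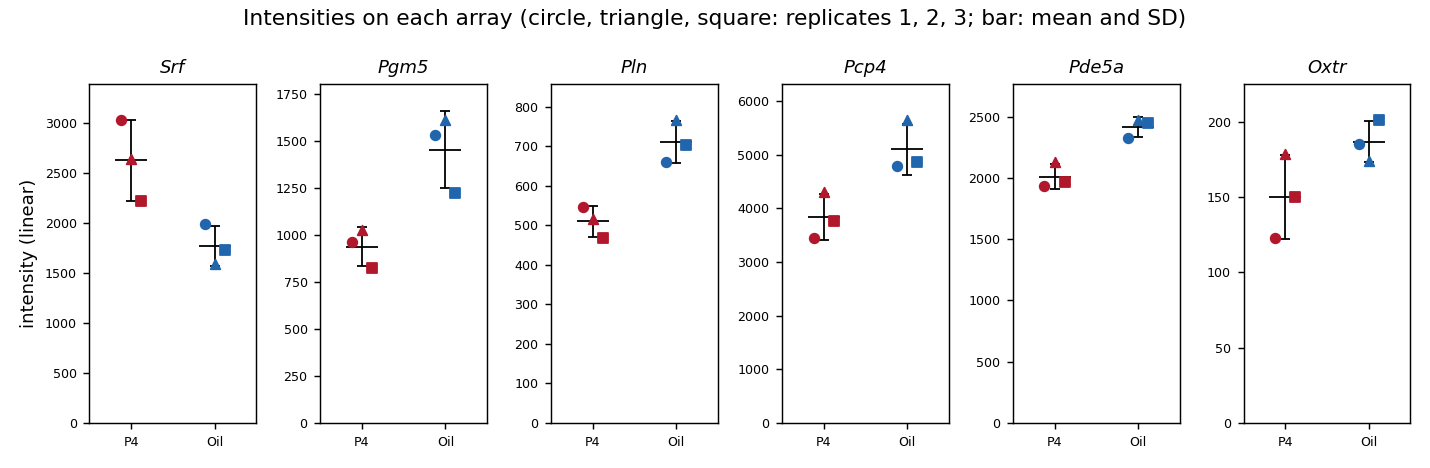
Linear array intensity of the 5 genes that passed the test and of Oxtr, each in a panel with its own axis from 0, P4 arrays in red and oil arrays in blue, with bars for the mean and SD of 3 arrays. The P4 arrays lie above the oil arrays in Srf and below them in Pgm5, Pln, Pcp4 and Pde5a, and 1 P4 array of Oxtr, at 178.5, lies within the oil range of 174.2 to 201.4.

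The other calcium genes did not pass the test. Cacna1c, the pore of the L-type channel, had 376.7, 482.6 and 368.3 after P4, against 446.9, 372.3 and 584.6 after oil. The difference was -0.17 log2 (95% interval -0.57 to 0.23). Its other probe set differed by -0.30 log2, without overlap between groups. That difference had an unadjusted p of 0.021 in limma's test, or 0.121 adjusted over all probe sets. Atp2b4, a plasma membrane calcium pump, differed by -0.25 log2 and Jph2, a junctophilin that holds the reticulum near the cell membrane, by -0.07 log2. The release channel gene Ryr2 had 96.45, 65.35 and 56.92 after P4, against 62.01, 56.07 and 61.86 after oil, a difference of 0.20 log2, while its other probe set differed by -0.25 log2. Casq2, the calcium buffer calsequestrin, differed by 0.27 log2 (95% interval -0.07 to 0.61).

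The large-conductance potassium channel, which lets potassium out and so opposes contraction, has its pore encoded by Kcnma1 and a smooth muscle subunit encoded by Kcnmb1. Kcnmb1 had 149.1, 170.5 and 123.1 on the P4 arrays, against 208.1, 218.3 and 172.7 on the oil arrays. The groups did not overlap, and the difference of -0.40 ± 0.14 log2 (SE) had an adjusted p of 0.0945, or 0.0128 with the replicate block. The other Kcnmb1 probe set, of similar level, differed by -0.27 log2, with overlap between groups. Kcnma1 had a difference of -0.05 log2 (95% interval -0.33 to 0.22). Its other probe sets, all dimmer, differed by -0.34, -0.32, -0.14 and 0.04 log2. The first of these had an unadjusted p of 0.012 in limma's test, or 0.0862 adjusted over all probe sets. Oxtr, the oxytocin receptor, had 122.6, 178.5 and 149.9 after P4, against 185.2, 174.2 and 201.4 after oil. P4 2 lay within the oil range and the other P4 arrays below it, and the difference of -0.30 log2 had a 95% interval of -0.61 to 0.01 and an adjusted p of 0.202. The other Oxtr probe set, a dimmer one, differed by 0.05 log2.

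Set by role, the 10 calcium, channel and receptor genes had a median difference of -0.21 log2, with 8 of the 10 below 0 and 2 of the 10 passing the test. The 17 structural genes had a median of -0.07 log2, with 11 below 0 (64.7%) and 1 passing (5.88%). Over all genes the median was -0.01 log2, with 52.3% below 0 and 13.0% passing. The difference between these medians was not tested. Over the arrays, the median of the calcium, channel and receptor genes lay -0.21, -0.01 and -0.30 log2 from the oil mean on P4 1, P4 2 and P4 3, against -0.03, -0.08 and 0.04 log2 on Oil 1, Oil 2 and Oil 3. P4 2 was thus the P4 array nearest the oil arrays for these genes.

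**Figure D4:**
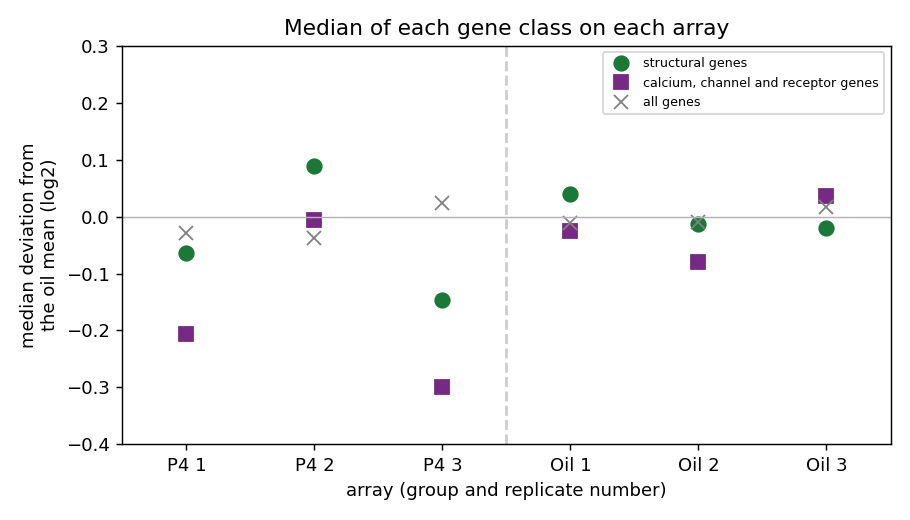
Median over genes of the deviation of log2(intensity + 16) from the mean of the oil arrays, one point per array, for the structural genes, the calcium, channel and receptor genes, and all genes. The structural medians are -0.06, 0.09 and -0.15 on the P4 arrays and lie between -0.02 and 0.04 on the oil arrays, so the P4 arrays stand on both sides of the oil arrays.

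The P4 arrays differed among themselves over the list as a whole. P4 2 was the highest P4 array for 25 of the 31 genes (80.65%), for 15 of the 17 structural genes and for all 11 filament genes, against 25.86% of all genes. P4 3 was the lowest P4 array for 20 of the 31 genes, against 28.37% of all genes. The spread of log2 values was larger among P4 arrays than among oil arrays for 22 of the 31 genes (70.97%), against 59.73% of all genes. P4 2 also had the lowest ratio of 3′ to 5′ signal for the actin control among the P4 arrays, 1.73 beside 2.60 on P4 1 and 2.23 on P4 3, against 1.97 to 2.27 on the oil arrays. The summed intensity of the 9 epithelial markers measured was 8961.3 on P4 2 and 12797.2 and 15329.0 on the other P4 arrays, against 14336.3 to 17173.0 on the oil arrays. The part of RNA quality and of tissue makeup in these values was not tested.

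**Figure D5:**
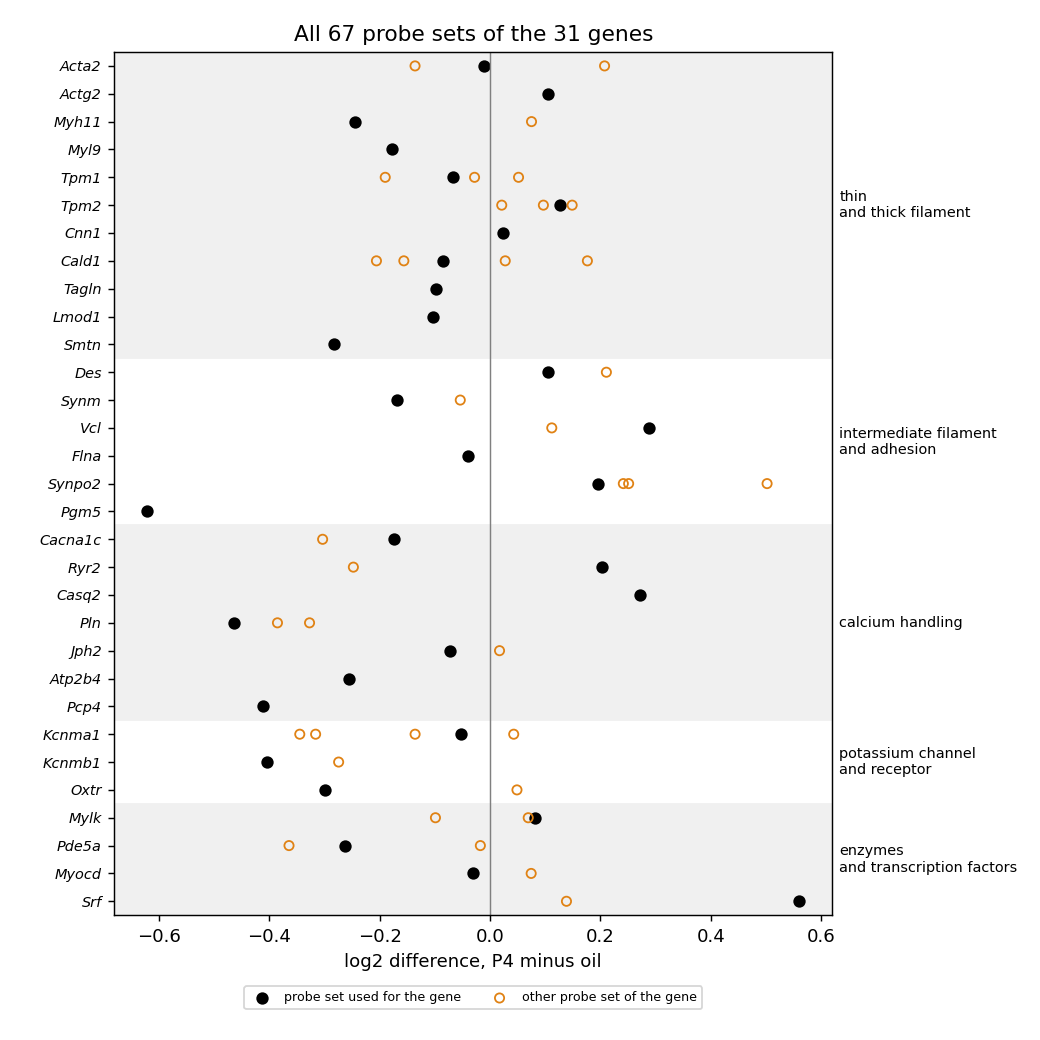
Difference in log2(intensity + 16), P4 minus oil, of every probe set of the 31 genes, the probe set used for a gene being marked apart from the others. Of 67 probe sets, 11 lie on the other side of 0 from the one used, as in Ryr2 at -0.25 against 0.20, and none of these 11 had an unadjusted p under 0.05.

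The 31 genes were measured by 67 probe sets. For 11 genes there was 1 probe set, and for 10 of the other 20 genes all probe sets lay on the same side of 0.

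Genes of the same pathways outside the list changed in both directions. The shares that passed the test were 16.95% of other contractile and cytoskeletal genes, 18.18% of other calcium genes, 4.35% of other potassium and chloride channel genes, 8.57% of contraction signalling genes and 27.27% of regulators linked to serum response factor and myocardin, against 13.0% of all genes. Their median differences were -0.08, -0.06, -0.04, -0.04 and -0.10 log2 in the same order, beside -0.01 log2 over all genes. Without both arrays numbered 2, only 171 of all genes passed limma's test. Agtr1a and Cldn5 were then the only genes outside the list named here whose calls held. This applies also to those described as holding with each single array left out. Of 59 other contractile and cytoskeletal genes measured, 4 rose and 6 fell. Hspb8, a small heat shock protein, rose by 0.76 log2 and Cnn3, a calponin of many cell types, by 0.57 log2. Csrp2 and Cnn2 rose by 0.30 and 0.25 log2. Sspn (sarcospan, of the dystrophin complex) fell by 0.64 log2, Parva (parvin, an adhesion protein) by 0.62, Ablim1 (an actin-binding LIM protein) by 0.59 and Ppp1r12b (a targeting subunit of myosin phosphatase) by 0.48. The calls for Hspb8, Cnn3, Sspn and Parva held with each single array left out. Those for Cnn2 and Csrp2 were lost without any 1 array, that for Ablim1 without any but Oil 1 and that for Ppp1r12b without any but P4 1. With the replicate block, 6 of the 59 rose and 13 fell, against 20.9% of all genes changed in either direction.

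Of 33 other calcium handling genes, 3 rose and 3 fell. Atp2a2, the calcium pump of the reticulum that phospholamban inhibits, had 3604.4, 4081.8 and 3883.2 on the P4 arrays, against 2796.1, 2659.6 and 2996.8 on the oil arrays. Its groups did not overlap, and it rose by 0.45 ± 0.08 log2 (SE) with an adjusted p of 0.0095, or 0.0502 without Oil 2. It differed by 0.22 log2, below the threshold, with its probe sets averaged. Jph1, another junctophilin, rose by 0.49 log2 and Tmem38b, a cation channel of the reticulum, by 0.44 log2. Atp2a3, a related reticulum pump, fell by 0.62 log2, and the L-type channel's auxiliary subunit genes Cacnb2 and Cacna2d1 fell by 0.57 and 0.46 log2. Of these 5 calls, Tmem38b was lost without Oil 2, Cacna2d1 without Oil 1, Atp2a3 without P4 2, Oil 1 or Oil 2, Cacnb2 without P4 1, P4 3, Oil 1 or Oil 3, and Jph1 without P4 1, P4 2, Oil 1 or Oil 3. With the block, 5 of the 33 rose and 5 fell, against 20.9% of all genes changed in either direction.

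Of 23 other potassium and chloride channel genes, 1 passed the test. Abcc9, the regulatory subunit of an ATP-sensitive potassium channel, fell by 0.39 log2, a call lost without Oil 1. Kcnj8, the pore of the same channel, had 1235.3, 2047.5 and 1658.0 after P4, against 2243.4, 2774.4 and 2313.1 after oil. Its groups did not overlap, but the adjusted p was 0.067. It passed with the replicate block (0.0053), without P4 2 (0.0353) and with the dimmest 50% of genes left out (0.0476). For Kcnj8, P4 2 was the P4 array nearest the oil arrays, so leaving it out enlarges the difference by construction. With the block, 1 of the 23 rose and 2 fell, those 2 being Abcc9 and Kcnj8, against 20.9% of all genes.

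Among 35 genes of signalling that drives or relaxes contraction, 2 rose and 1 fell. Ptger3, a prostaglandin E2 receptor, had 473.2, 613.0 and 684.8 on the P4 arrays, against 212.3, 183.3 and 197.8 on the oil arrays. Ednrb, an endothelin receptor, had 705.9, 886.5 and 1005.5 on the P4 arrays, against 348.7, 361.9 and 375.4 on the oil arrays. Agtr1a, an angiotensin II receptor, had 304.1, 522.6 and 365.4 on the P4 arrays, against 853.7, 955.7 and 839.1 on the oil arrays. None of the 3 overlapped between groups, their differences were 1.49, 1.21 and -1.15 log2, and each call held with every single array left out. With the block, 3 of the 35 rose and 4 fell, against 20.9% of all genes changed in either direction.

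Of 22 transcriptional regulators linked to serum response factor and myocardin, not all of them partners, 2 rose and 4 fell. Heyl and Mef2a rose by 0.54 and 0.27 log2, while Foxo4, Smad3, Tead1 and Prrx1 fell by 0.55, 0.43, 0.37 and 0.33 log2. Only the Foxo4 call among these 6 held with each single array left out. Smad3 was lost without Oil 2, Heyl without any but P4 3, Mef2a and Tead1 without any but P4 1, and Prrx1 without any 1 array. With the block, 3 of the 22 rose and 6 fell, against 20.9% of all genes changed in either direction. Of 13 immediate early and growth-linked targets of serum response factor, Srf itself among them, 2 rose and 1 fell. These make up 23.08% of that list, against 13.0% of all genes. Ccn1 and Ccn2, both secreted matrix proteins, went opposite ways: Ccn1 rose by 1.15 log2, a call lost without P4 2, P4 3, Oil 1 or Oil 2, and Ccn2 fell by 0.63 log2, a call that held with each array left out.

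Some markers of other cell types in the horn passed limma's test, against 13.0% of all genes. The lists that held such markers had only 9 or 10 genes each, and their shares were not tested against that of all genes. Of 10 stromal markers, Hoxa11 and Hand2 rose by 0.89 and 0.50 log2 and Lum fell by 0.90, with summed intensity of 43272.7 to 52868.6 on P4 arrays, against 46433.4 to 50957.6 on oil arrays. Of 10 endothelial markers, Cldn5 and Tek fell by 0.92 and 0.38 log2, and the sum was 6843.4 to 6922.3 after P4, against 7588.4 to 9357.2 after oil. Of 9 pericyte markers, Mcam and Abcc9 fell by 0.46 and 0.39 log2, and the sum was 11630.5 to 13113.9 after P4, against 13864.3 to 15486.6 after oil. The endothelial and pericyte sums thus did not overlap between groups. Taken singly, 2 of the 10 endothelial and 5 of the 9 pericyte markers did not overlap, against 31.8% of all genes. Kcnj8 and Abcc9 are also among the channel genes above, and the pericyte sum without them was not taken. The calls for Hoxa11 and Cldn5 held with each single array left out, while Lum and Mcam were lost without Oil 2, Hand2 without Oil 2 or Oil 3, and Tek without any but Oil 1. No marker passed limma's test for epithelium (9), leukocytes (10), mesothelium (5), adipocytes (3), nerve (4) and cardiac muscle (7). In the same order, 2, 0, 1, 1, 0 and 1 had an unadjusted p under 0.05, without a count over all genes to set beside them. The epithelial median difference was -0.34 log2, the lowest of the marker lists, though Krt7, Cldn4 and Foxa2 lay above 0. Krt18 differed by -0.62 log2 without overlap between groups, with an adjusted p of 0.0673 in limma's test. It passed with the block, with quantile normalization, with the dimmest 50% of genes left out and without P4 1, the P4 array nearest the oil arrays. The leukocyte sum was 5651.6 to 13381.2 after P4, against 6386.7 to 13204.5 after oil, and the adipocyte sum 224.5 to 317.6 after P4, against 313.2 to 512.0 after oil. With the block, 20.9% of all genes passed in either direction. Among the markers, 4 epithelial ones then fell, 4 stromal ones rose and 2 fell, and 3 endothelial and 3 pericyte ones fell. In addition, 1 leukocyte marker (Cd14) rose and 1 adipocyte marker (Adipoq, by 1.38 log2) fell, these 2 being named after their values were seen. No marker of any list was at 0 on any array, the lowest intensity being 14.9. The part of vessels and stroma in the falls of Pgm5, Pln, Pcp4 and Pde5a was not tested.

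The 14 smooth muscle markers, all of them in the list, were measured on every array, with summed intensity of 57705.4 to 67788.9 on P4 arrays, against 63592.7 to 64135.9 on oil arrays. Of 11 skeletal muscle markers, Acta1, the skeletal alpha-actin, was the 1 that passed the test (9.09%, against 13.0% of all genes). It had 1263.8, 2850.7 and 1621.8 on the P4 arrays, against 667.5, 542.4 and 727.1 on the oil arrays, a rise of 1.47 ± 0.27 log2 (SE) with an adjusted p of 0.0119, lost without Oil 2. The other 10 skeletal markers had intensities of 24.96 to 321.7.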

How the data were processed

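Total RNA of uterine horns was hybridised as biotinylated cRNA to Affymetrix arrays, per the labels' protocols. The deposited values are linear intensities for 45101 probe sets on 6 arrays. The sources used here do not say how the authors summarised or scaled these intensities. Array medians lay between 117.3 and 122.9, so no further normalization was applied. A single gene symbol was annotated for 34945 of the probe sets and more than 1 for 932, while 9160 had no name here and 64 were controls. Arrays have no read depth, and their number limits the precision.

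Differences between P4 and oil were estimated on log2(intensity + 16) using limma (version 3.58.1, R 4.3.3), with a linear model and eBayes moderation with trend. The Benjamini-Hochberg adjustment ran over 18193 genes with a threshold of 0.05, and intervals are at 95%. The procedure was tested on simulated data. Python 3.11.15 with pandas 2.3.3 and matplotlib 3.10.9 made the summaries. Deviations from the group means of same-numbered arrays correlated at 0.53, 0.13 and 0.64, each over the limit of 0.1, and pairing was inferred from this alone, since nothing in the labels ties the arrays beyond their number. Oil 2 correlated more with P4 1, at 0.29. From each other gene list, at most 4 changed genes in each direction were named by size of change, with the levels of a few others. The 31 genes and all lists were chosen with earlier results of these data known. 19 alternatives were tried: normalization, scaling, pseudocount, filter, probe set choice, moderation, block, arrays left out and threshold.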

Additional observations from a re-analysis of the deposited data

How the results depend on the processing

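The 5 calls among the 31 genes rest on few arrays. Calls over all genes also fell with arrays left out, from 2368 with all 6 arrays. Leaving out each array in turn gave 993 to 2302 genes changed, 0 to 2 of the 31 genes higher and 0 to 3 lower, with none of the 31 passing without Oil 2. The count was lowest without Oil 2 (993), Oil 1 (1170) and P4 2 (1401). Leaving out both arrays numbered 2 ended every call outside the 31 genes that the text names except Agtr1a and Cldn5, and gave 171 genes, 0 higher and 0 lower, and a median of -0.38 log2 for the calcium, channel and receptor genes, with fewer samples in the fit. The replicate block (pairing) gave 3801 genes changed. Beside the added Kcnmb1 call, it changed no call among the 31 genes.

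Centring the arrays on 18 hybridisation control probe sets, which lay -0.17 log2 apart (P4 minus oil), moved the median of all genes to 0.16 log2. It left 0 of the 31 genes lower, put the structural median at 0.10 and the calcium, channel and receptor median at -0.043, and gave 1595 genes higher and 330 lower (82.9% higher, against 46.7%). It turned the sign of Acta2 (0.16), Tpm1 (0.10), Cald1 (0.086), Tagln (0.0745), Lmod1 (0.069), Synm (0.0029), Flna (0.13), Jph2 (0.10), Kcnma1 (0.12) and Myocd (0.14), none of which had passed the test. The falls of Sspn, Parva, Ablim1, Ppp1r12b, Atp2a3, Cacnb2, Cacna2d1, Abcc9, Foxo4, Smad3, Tead1, Prrx1, Ccn2, Mcam and Tek no longer passed with it.

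Averaging the probe sets of a gene gave 2 of the 31 genes higher, turned the sign of Acta2 (0.020), Ryr2 (-0.0225) and Myocd (0.022), and ended the calls of Pde5a, Atp2a2, Jph1, Cacnb2, Cacna2d1, Ablim1, Heyl, Mef2a, Smad3, Tead1 and Prrx1. Leaving out probe sets ending in _x_at or _s_at gave 0 higher, turned the sign of Acta2 (0.21) and ended the calls of Srf, Pde5a and Parva. Without the trend in eBayes, 2 of the 31 were lower, Pcp4 and Pde5a no longer passing, and the calls of Cnn2, Csrp2, Mef2a and Prrx1 ended too. Robust moderation ended those of Pde5a, Ccn1 and Mef2a. Quantile normalization ended those of Cnn2 (0.15 log2), Csrp2 and Mef2a and turned the sign of Cnn1 (-0.057), and leaving out both arrays numbered 2 that of Actg2 (-0.13), Cnn1 (-0.026) and Myocd (0.0021). Over single arrays left out, Acta2 ran from -0.058 to 0.013, Actg2 from -0.17 to 0.37, Cnn1 from -0.0088 to 0.049, Flna from -0.10 to 0.015, Jph2 from -0.17 to 0.034, Myocd from -0.20 to 0.065 and Kcnma1 from -0.13 to 0.058. The cause was not tested. The array number limits what can be detected, and the dimmest 30% and 50% filters kept 30 and 26 of the 31 genes.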
